A study of Danio rerio with 28 samples.

Results

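Aminoacyl-tRNA synthetases are the enzymes that attach each amino acid to its transfer RNA, the step that loads the raw material of protein synthesis. Most animals carry separate nuclear genes for the enzymes that work in the cytosol and for those that work in mitochondria, and the first letter of each gene symbol is the one-letter code of the amino acid. In human cells several cytosolic synthetases sit in a multi-synthetase complex held together by AIMP1, AIMP2 and EEF1E1, the genes GARS1 and KARS1 serve both compartments, and the stress factor ATF4 induces many cytosolic synthetase genes when amino acids run short. The heart is rich in mitochondria, so both classes are at work in it.

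The genes were chosen by symbol: a one-letter amino acid code followed by ars, ars1 or ars2, together with farsa, farsb and fars2. The rule found 33 genes among 32520 listed genes, of which 29201 carried a symbol, and each member had a single Ensembl identifier. Of the 33, 18 were classed as cytosolic (among them aars1, cars1, farsa, farsb, gars1, iars1, kars1, lars1, mars1, nars1, qars1, rars1, sars1, tars1, vars1, wars1, yars1) and 15, ending in 2, as mitochondrial (among them aars2, cars2, ears2, fars2, hars2, iars2, lars2, mars2, nars2, rars2, sars2, vars2, wars2, yars2). All 33 passed the filter on low counts in both experiments, so no member was lost. The synthetase genes eprs1, pars2, lars1a and tars3 fall outside the rule.

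The libraries came from ventricles of adult zebrafish aged 4 to 6 months, each pooled from at least 5 fish, and all groups had 2 libraries. In the time course, thraa+/- fish and WT fish were compared. The mutant line carries an 8-bp insertion in thraa, 1 of the thyroid hormone receptor alpha genes of zebrafish. The library labels call it thraa KO, while the design text of the series gives thraa+/-. Hearts were taken uninjured (ventricular apex) and, as the injured zone, at 8 hours post injury (hpi) and at 1, 3, 7 and 15 days post injury (dpi), after about 20% of the ventricle had been resected at the apex. In the other experiment, thraa-/- hearts were set against WT hearts, all uninjured; their titles name the entire heart and their protocol names ventricles. Nothing in these groups separates a change in the share of a cell type from a change in RNA per cell.

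Depth ranged from 13692204 to 18775025 estimated counts per time-course library and from 13656671 to 16532401 per whole-heart library. The level of thraa (ENSDARG00000000151) does not check the genotype labels, since the mutation leaves a transcript: it lay between 1.35 and 4.44 TPM (a transcript level scaled for transcript length and library size) in the thraa+/- libraries and between 1.32 and 4.37 TPM in WT. In whole hearts it was 8.04 and 6.51 TPM in thraa-/- and 4.47 and 5.14 TPM in WT. Cell type markers moved with injury: the summed TPM of 17 cardiomyocyte markers was 101448 to 102467 in uninjured thraa+/- hearts and 48617 to 48870 at 7 dpi, and 120282 to 120575 in uninjured WT hearts and 50712 to 51542 at 7 dpi. Over the same interval 14 leukocyte markers went to 2112 to 2125 TPM at 7 dpi against 207 to 212 TPM uninjured in thraa+/-, and to 1958 to 1994 TPM at 7 dpi against 366 to 382 TPM uninjured in WT. The 12 epicardial and fibroblast markers reached 3443 to 3572 TPM at 7 dpi against 122 to 124 TPM uninjured in thraa+/-, and 3131 to 3179 TPM at 7 dpi against 254 to 256 TPM uninjured in WT. The 6 erythrocyte markers summed to 52226 to 53095 TPM at 7 dpi against 6565 to 6729 TPM uninjured in thraa+/-. In WT they summed to 41289 to 41363 TPM at 7 dpi against 10246 to 10492 TPM uninjured. The shifts at 8 hpi were not those of 7 dpi. The leukocyte sum at 8 hpi was 880 to 904 TPM in thraa+/- but 312 to 333 TPM in WT, below uninjured WT. The epicardial and fibroblast sum was then 116 to 162 TPM in thraa+/- and 151 to 164 TPM in WT, the latter also below uninjured WT. Among the cardiomyocyte markers, 1 of the genes that share the symbol tnni1 (ENSDARG00000000474) was at 0 in most groups. The part of these shifts in the results below was not tested.

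The classes differed first in level. Over the 24 time-course libraries the median TPM of the cytosolic members ran between 7.01 for vars1, the valyl enzyme, and 95.5 for kars1, the lysyl enzyme. Between them, in ascending order of median TPM, stood mars1 (7.40), cars1 (7.68), wars1 (7.86), iars1 (8.04), lars1 (8.62), qars1 (14.6), aars1 (16.1), yars1 (16.9), rars1 (17.2), tars1 (18.7), nars1 (19.1), farsb (21.7), farsa (25.6), gars1 (30.9) and sars1 (39.4). The ranges of neighbours in this order overlapped across libraries, and the lowest kars1 library, at 58.5 TPM, lay above the median of every other member. The mitochondrial members were rarer: aars2 (1.37), vars2 (1.85), rars2 (1.92), mars2 (2.15), nars2 (2.17), cars2 (2.21), lars2 (2.30), yars2 (2.42), wars2 (2.45), fars2 (2.71), iars2 (3.96), ears2 (4.22) and sars2 (4.33) all had a median TPM under that of the lowest cytosolic member. The exception was hars2, at a median of 32.8 TPM.

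The gene named hars2 (ENSDARG00000003693) is the only gene whose symbol begins with hars in the gene name table used here, and the RefSeq gene table lists a zebrafish hars and no hars2. Across the 24 libraries its log2 level had a median correlation of 0.83 with the 18 cytosolic members and 0.26 with the other 14 mitochondrial members, and the closest members were yars1 (0.97), tars1 (0.96) and sars1 (0.94). These libraries share time points, so the correlations are a description only. Its class is therefore uncertain. The relative injury medians and the class differences over time are given with and without it. Mitochondrial sums leave it out, while counts of called members and other class medians include it.

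Set against each other, the 14 cytosolic genes with a mitochondrial counterpart for the same amino acid (farsa and farsb both set against fars2) exceeded that counterpart by a median of 1.99-fold in TPM for iars1 over iars2 and of up to 11.3-fold for aars1 over aars2. The ratio was 9.46 for rars1 over rars2 and 2.73 for wars1 over wars2. The tryptophan pair was the only one of the 14 with a library in which the mitochondrial gene was the more abundant, its lowest ratio being 0.69.

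The question of the time course was how these genes move as the heart responds to resection. In TPM the answer was asymmetric between the compartments. The 18 cytosolic members summed to 295 and 295 TPM in the uninjured thraa+/- libraries, to 414 to 515 TPM in the 6 libraries of 8 hpi to 3 dpi and to 299 to 351 TPM in the 4 libraries of 7 and 15 dpi. In WT the same sum was 323 and 318 TPM uninjured, 478 to 615 TPM at 8 hpi to 3 dpi and 288 to 317 TPM at 7 and 15 dpi. In TPM every library of the early window lay above every other library in both genotypes. In thraa+/-, though not in WT, this depends on the scale, as given below. The 14 mitochondrial members without hars2 summed to 39.5 and 37.8 TPM in uninjured thraa+/- hearts, 32.8 to 41.8 TPM at 8 hpi to 3 dpi and 31.3 to 37.3 TPM at 7 and 15 dpi. In WT they summed to 40.0 and 37.4 TPM uninjured, 39.0 to 46.4 TPM early and 34.7 to 39.6 TPM late. In TPM the mitochondrial sums thus overlapped across the windows, except that late thraa+/- sums lay below uninjured ones. This too depends on the scale. In CPM, a count scale explained below, the uninjured mitochondrial sums were 158 and 148 in thraa+/- and 164 and 152 in WT. Every injured library lay lower, the highest at 126 (WT, 8 hpi). Cytosolic CPM sums in thraa+/- were 1055 and 1020 uninjured, 1232 and 1347 at 8 hpi, 1045 and 1031 at 1 dpi and 1057 and 1073 at 3 dpi. In WT they were 1126 and 1095 uninjured, 1516 and 1540 at 8 hpi, 1268 and 1255 at 1 dpi and 1156 and 1172 at 3 dpi. At 7 and 15 dpi the WT sums were 675 to 731, so in WT the early libraries were the highest in CPM too.

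**Figure D1:**
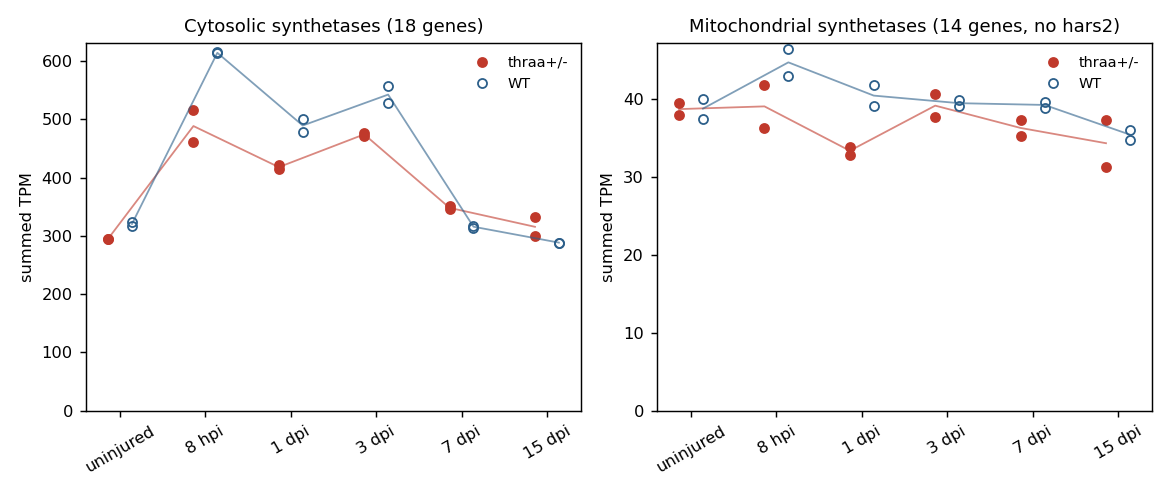
Summed TPM of the 18 cytosolic synthetases (left panel) and of the 14 mitochondrial synthetases without hars2 (right panel) by time, with 1 point per library and lines through the mean of the 2 libraries; filled points are thraa+/-, open points WT. The cytosolic sums of 8 hpi to 3 dpi lie between 414 and 615 TPM, above all others, while the mitochondrial sums stay between 31.3 and 46.4 TPM throughout.

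Gene by gene, edgeR's quasi-likelihood test compared each time with the uninjured hearts of the same genotype over 17837 genes. A gene is called here when its log2 fold change is at least 1 in size and its Benjamini-Hochberg adjusted p is under 0.05. Fold changes are on the scale of trimmed mean of M-values (TMM) normalisation. That scale matters, because TMM factors were 0.68 to 0.70 in the uninjured libraries and 0.89 to 1.29 in the injured ones. Scaling by total counts instead raised the median of all genes by 0.41 to 0.89 on the log2 scale in the 10 injury comparisons. Class medians are for that reason also set against the all-gene median, and differences between members do not depend on the scale.

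The cytosolic members were highest relative to other genes at 8 hpi. Their median log2 fold change at that time was 0.67 in thraa+/-, or 0.62 above the median of all genes, and 0.77 in WT, or 0.69 above it. Called higher were 6 of 18 in thraa+/- (33.3%, against 17.5% of all genes) and 5 of 18 in WT (27.8%, against 16.5%). By adjusted p alone, 16 of 18 were higher in thraa+/- (88.9%, against 27.9% of all genes) and 15 of 18 in WT (83.3%, against 28.1%). Both genotypes shared cars1, iars1, mars1 and vars1 among the called genes. In thraa+/- wars1 and yars1 were also called, and in WT lars1. Of the 18, 16 in thraa+/- and 14 in WT had their highest fold change at 8 hpi among the 5 times.

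The early excess narrowed after the first hours. At 1 dpi the cytosolic median stood 0.35 above that of all genes in thraa+/- and 0.31 in WT, and at 3 dpi 0.29 and 0.20. At 1 dpi 2 of 18 were called higher in thraa+/- (11.1%, against 16.8% of all genes) and 1 of 18 in WT (5.56%, against 14.8%). At 3 dpi the counts were 2 of 18 in thraa+/- (11.1%, against 19.2%) and 1 of 18 in WT (5.56%, against 20.8%), so at these times large increases were no more frequent than over the genome. The called genes were wars1 and yars1 at 1 dpi and wars1 and cars1 at 3 dpi in thraa+/-, and cars1 at both times in WT.

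At 7 and 15 dpi the class had turned. The cytosolic median was 0.34 below that of all genes at 7 dpi in thraa+/- and 0.71 below it in WT, and at 15 dpi 0.26 and 0.64 below. At 7 dpi 1 of 18 was called lower in thraa+/- (kars1; 5.56%, against 14.1% of all genes), against 6 of 18 in WT (kars1, qars1, rars1, sars1, wars1 and yars1; 33.3%, against 13.6%). At 15 dpi 0 of 18 were called in thraa+/- by edgeR, against 4.0% of all genes called lower. Of those 18, 11 had an unadjusted p under 0.05, a count with no all-gene share beside it, and both DESeq2 and limma called 0. In WT 1 of 18 was called lower (wars1; 5.56%, against 7.36%). By adjusted p alone 9 of 18 were lower at 15 dpi in thraa+/- (against 16.7% of all genes) and 17 of 18 in WT (94.4%, against 21.8%). The late medians themselves, not set against all genes, depend on the scale: with total-count scaling the cytosolic median at 7 dpi was 0.70 in thraa+/- and 0.36 in WT, and at 15 dpi 0.19 and −0.05. The all-gene medians on that scale were 1.03 and 1.06 at 7 dpi and 0.45 and 0.59 at 15 dpi. The class thus lay below other genes late on both scales. At 7 dpi total-count scaling called 3 members higher and 0 lower in thraa+/-, against 46.1% higher and 4.2% lower of all genes, and 1 higher and 1 lower in WT, against 46.8% and 4.29%. At 8 hpi that scaling called 14 of 18 higher in thraa+/- (77.8%, against 27.8% of all genes) and 13 in WT (72.2%, against 29.6%).

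The mitochondrial members ran below other genes at every time. Measured from the all-gene median, the class median of log2 fold change was −0.57, −0.57, −0.59, −0.93 and −0.62 at 8 hpi and 1, 3, 7 and 15 dpi in thraa+/-, and −0.22, −0.38, −0.80, −0.91 and −0.67 in WT. Without hars2 these relative medians were −0.58, −0.60, −0.70, −0.94 and −0.68 in thraa+/- and −0.25, −0.42, −0.86, −0.84 and −0.65 in WT. On the TMM scale the class medians were below 0 at every time in both genotypes, but with total-count scaling they were above 0 except at 8 hpi (−0.05) and 15 dpi (−0.18) in thraa+/- and at 15 dpi (−0.08) in WT.

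Called lower in thraa+/- were 1 of 15 mitochondrial members at 8 hpi (6.67%, against 12.9% of all genes), 4 at 1 dpi (26.7%, against 13.8%), 2 at 3 dpi (13.3%, against 12.7%), 4 at 7 dpi (26.7%, against 14.1%) and 3 at 15 dpi (20.0%, against 4.0%). In WT the counts were 1 at 8 hpi (6.67%, against 12.5% of all genes), 2 at 1 dpi (13.3%, against 10.8%), 4 at 3 dpi (26.7%, against 14.4%), 3 at 7 dpi (20.0%, against 13.6%) and 3 at 15 dpi (20.0%, against 7.36%). Only 1 mitochondrial member was called higher at any time, wars2 in WT at 8 hpi. The genes called lower included aars2 at 1 dpi in both and at 3, 7 and 15 dpi in WT, and fars2 at 3 dpi in both and at 1 dpi in thraa+/-. Also lower were ears2 at 15 dpi in both and at 3 dpi in WT, sars2 at 7 and 15 dpi, lars2 at 1 dpi and nars2 and wars2 at 7 dpi in thraa+/-. In WT iars2 was also called at 7 dpi. The members cars2, mars2, rars2, vars2 and yars2 passed the cutoffs at no time, with fold changes between −0.98 and 0.77.

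**Figure D2:**
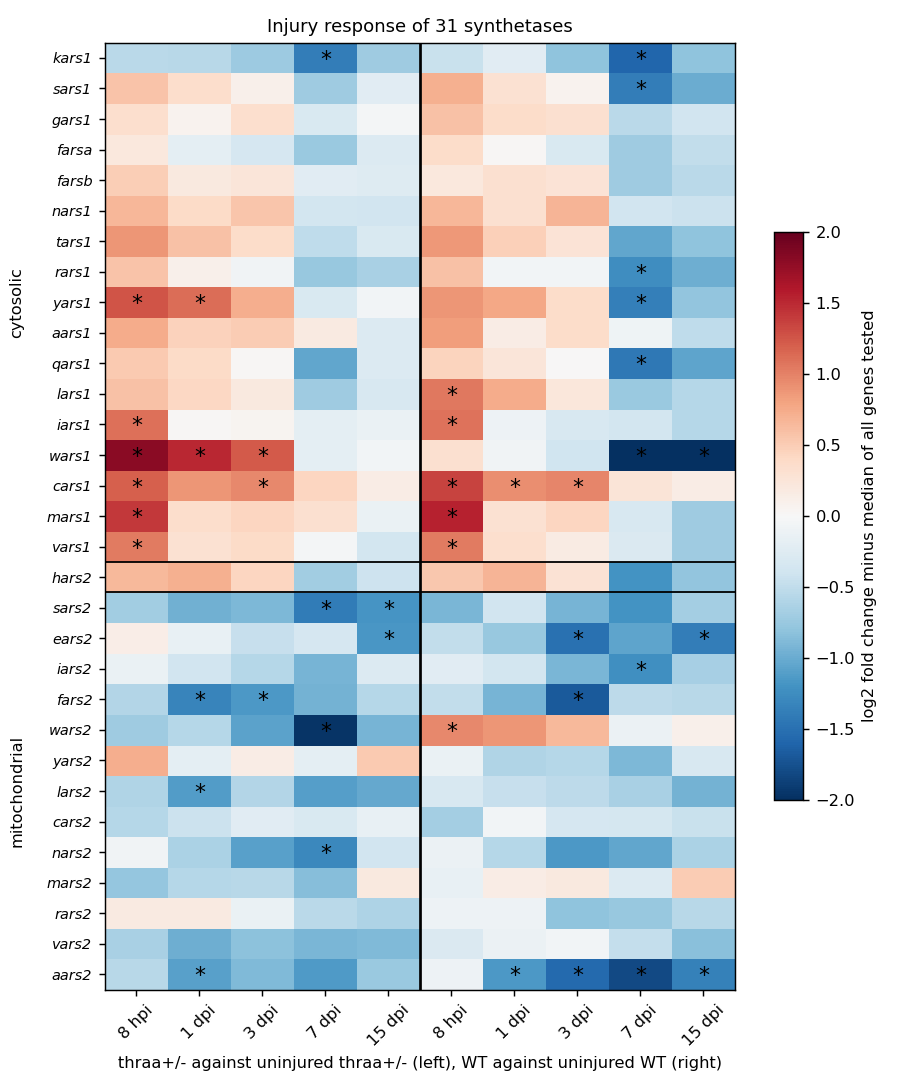
Log2 fold change of 31 of the 33 synthetases against uninjured hearts of the same genotype, after subtracting the median of all genes tested, for thraa+/- (left block) and WT (right block) at 8 hpi and 1, 3, 7 and 15 dpi; genes are ordered by median TPM within each class and asterisks mark genes that passed both cutoffs before the subtraction. Most cytosolic rows are red at 8 hpi and blue at 7 dpi, kars1 is blue throughout, and hars2 follows the cytosolic rows.

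The same contrast held within pairs for the same amino acid, where normalisation cancels. At 8 hpi the log2 fold change of the cytosolic gene exceeded that of its mitochondrial counterpart in 14 of 14 pairs in thraa+/- (median difference 1.22) and in 13 of 14 in WT (1.00). At 1 dpi it did so in 13 of 14 pairs in both genotypes, with median differences of 1.3 in thraa+/- and 0.82 in WT, and at 3 dpi in 14 of 14 (0.99) and 13 of 14 (0.97). The genotypes parted at 7 dpi, when 12 of 14 pairs kept that sign in thraa+/- (0.74) and 6 of 14 in WT (−0.08). At 15 dpi the counts were 10 of 14 in thraa+/- (0.30) and 9 of 14 in WT (0.08). The single WT exception at 8 hpi, 1 dpi and 3 dpi was wars1 with wars2. The difference between the genotypes in these counts was not tested. In class medians without any pairing, the cytosolic minus mitochondrial difference was 1.2, 0.93, 0.88, 0.59 and 0.36 over the 5 times in thraa+/- and 0.91, 0.69, 1.00, 0.20 and 0.03 in WT. Without thraa+/- uninjured replicate 2 the value at 15 dpi in thraa+/- was 0.11. With all libraries but without hars2, the differences were 1.21, 0.96, 0.99, 0.60 and 0.42 in thraa+/-. In WT they were 0.94, 0.73, 1.05, 0.13 and 0.01. Within single libraries the difference of class median log2 levels had a replicate SD of 0.15, pooled over 12 groups. That SD is not the error of a fold change. The uninjured WT libraries, the baseline of every WT value, were further apart, at 2.21 and 2.80.

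Among the cytosolic members, mars1, which charges methionine and so also feeds translation initiation, was called at 8 hpi and at no other time in both genotypes. The thraa+/- libraries measured 45.1 and 53.1 CPM (counts scaled to the TMM-adjusted library size, with no length correction) at 8 hpi, 21.6 and 24.1 at 1 dpi, followed by 25.8 and 25.9 at 3 dpi, 25.5 and 23.6 at 7 dpi, then 14.9 and 18.8 at 15 dpi, against 18.7 and 17.0 CPM uninjured. The WT libraries measured 61.2 and 58.4 CPM at 8 hpi, 25.1 and 25.5 at 1 dpi, followed by 28.5 and 31.0 at 3 dpi, 18 and 18 at 7 dpi, then 12.1 and 12.9 at 15 dpi, against 20.0 and 18.8 CPM uninjured. The 8 hpi libraries lay above all others in both genotypes, with log2 fold changes of 1.46 (SE 0.12, edgeR adjusted p = 1.62e-14) in thraa+/- and 1.62 (SE 0.11, edgeR adjusted p = 4.28e-16) in WT.

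The cysteinyl gene cars1 was higher in every injured library than in any uninjured one. In thraa+/- it measured 28.4 and 30.6 CPM at 8 hpi, 23.5 and 22.6 at 1 dpi, followed by 25.5 and 26.7 at 3 dpi, 19.9 and 17.4 at 7 dpi, then 14.6 and 13.6 at 15 dpi, against 12.2 and 12.8 CPM uninjured. WT hearts gave 31.4 and 35.5 CPM at 8 hpi, 24.6 and 25.3 at 1 dpi, followed by 28.1 and 27.2 at 3 dpi, 18 and 16.5 at 7 dpi, then 14.8 and 14.2 at 15 dpi, against 13.1 and 11.7 CPM uninjured. This gap was smallest at 15 dpi, and at 8 hpi the log2 fold change was 1.24 (SE 0.12, edgeR adjusted p = 1.74e-11) in thraa+/- and 1.43 (SE 0.12, edgeR adjusted p = 2.74e-13) in WT.

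The tyrosyl gene yars1 rose early in both genotypes, past the fold cutoff in thraa+/- alone, and was called lower at 7 dpi in WT. The thraa+/- libraries measured 57.8 and 64.8 CPM at 8 hpi, 51.3 and 56.8 at 1 dpi, followed by 44.6 and 43.5 at 3 dpi, 22.4 and 21.9 at 7 dpi, then 24.2 and 24.8 at 15 dpi, against 23.8 and 25.9 CPM uninjured. In WT it measured 72.3 and 76.7 CPM at 8 hpi, 66.5 and 71.8 at 1 dpi, followed by 54.4 and 57.0 at 3 dpi, 16.5 and 18 at 7 dpi, then 22.6 and 24.1 at 15 dpi, against 40.3 and 35.9 CPM uninjured. Its log2 fold change at 8 hpi was 1.3 (SE 0.10, edgeR adjusted p = 1.63e-15) in thraa+/- and 0.97 (SE 0.09, edgeR adjusted p = 2.68e-12) in WT, where it stayed just under the fold cutoff. At 7 dpi in WT it was −1.15 (SE 0.10, edgeR adjusted p = 2.08e-13), and −0.30, not called, with total-count scaling.

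In kars1, the most abundant member, the early values ran below those of other genes, unlike in most of its class. It measured 233 and 272 CPM at 8 hpi, 247 and 239 at 1 dpi, followed by 229 and 236 at 3 dpi, 139 and 159.5 at 7 dpi, then 211 and 233 at 15 dpi in thraa+/-, against 364 and 348 CPM uninjured. The WT libraries measured 262 and 266 CPM at 8 hpi, 310.3 and 304 at 1 dpi, followed by 219 and 224 at 3 dpi, 129.9 and 133 at 7 dpi, then 208 and 202 at 15 dpi, against 346 and 334 CPM uninjured. On this scale every injured library lay below the uninjured ones. In TPM the injured kars1 libraries up to 3 dpi, at 93.1 to 100.8 in thraa+/- and 94.7 to 118.9 in WT, overlapped or exceeded the uninjured ones, at 98.0 to 98.9 in thraa+/- and 93.2 to 96.0 in WT. At 7 dpi kars1 was lower on every scale, and the TMM log2 fold change was −1.25 (SE 0.07, edgeR adjusted p = 5.16e-19) in thraa+/- and −1.37 (SE 0.07, edgeR adjusted p = 3.78e-20) in WT. With total-count scaling the fall of kars1 was smaller and was not called in either genotype. Its log2 level had a median correlation of 0.48 with the other 17 cytosolic members over the 24 libraries, below the 0.66 to 0.87 of 16 of them. With 14 mitochondrial members the median correlation of kars1 was 0.51. The gene was picked for description after its values were seen.

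The mitochondrial alanyl gene aars2 was called lower at 1 dpi in both genotypes and from then on in WT. The thraa+/- libraries measured 5.02 and 5.37 CPM at 8 hpi, 3.53 and 3.44 at 1 dpi, followed by 4.07 and 4.57 at 3 dpi, 3.42 and 4.04 at 7 dpi, then 4.01 and 5.20 at 15 dpi, against 8.75 and 6.13 CPM uninjured. In WT it measured 9.95 and 8.35 CPM at 8 hpi, 4.24 and 4.52 at 1 dpi, followed by 3.09 and 4.05 at 3 dpi, 2.79 and 3.38 at 7 dpi, then 3.75 and 3.86 at 15 dpi, against 8.90 and 9.57 CPM uninjured. The WT libraries of 8 hpi overlapped the uninjured ones, while all later WT libraries lay below them. At 7 dpi the log2 fold change was −0.99 (SE 0.23, edgeR adjusted p = 3.30e-04) in thraa+/- and −1.58 (SE 0.24, edgeR adjusted p = 1.85e-07) in WT, and with total-count scaling the WT value for aars2 was −0.74 and was not called.

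The mitochondrial seryl gene sars2 measured 7.36 and 9.35 CPM at 8 hpi, 6.68 and 6.75 at 1 dpi, followed by 7.00 and 8.09 at 3 dpi, 5.67 and 5.24 at 7 dpi, then 5.48 and 6.46 at 15 dpi in thraa+/-, against 13.0 and 13.1 CPM uninjured. The WT libraries measured 6.19 and 6.30 CPM at 8 hpi, 9.27 and 8.81 at 1 dpi, followed by 7.20 and 5.96 at 3 dpi, 5.89 and 5.42 at 7 dpi, then 7.86 and 6.84 at 15 dpi, against 10.8 and 11.4 CPM uninjured. On this scale the injured libraries lay below the uninjured ones of their genotype, but in TPM the WT libraries of 1 dpi, at 5.40 and 4.96, lay above the uninjured WT ones, at 4.47 and 4.76. The log2 fold change at 7 dpi was −1.26 (SE 0.18, edgeR adjusted p = 1.14e-07) in thraa+/- and −0.97 (SE 0.19, edgeR adjusted p = 2.06e-05) in WT. With total-count scaling the sars2 value in thraa+/- was −0.36 and was not called.

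Finally hars2, described because of its uncertain class, measured 73.8 and 86.4 CPM at 8 hpi, 80.4 and 80.5 at 1 dpi, followed by 66.2 and 76.3 at 3 dpi, 31.1 and 35.9 at 7 dpi, then 36.2 and 39.6 at 15 dpi in thraa+/-, against 46.7 and 51.9 CPM uninjured. WT hearts gave 91.5 and 99.0 CPM at 8 hpi, 103 and 106 at 1 dpi, followed by 85.5 and 86.8 at 3 dpi, 28.6 and 34.7 at 7 dpi, then 39.5 and 36.0 at 15 dpi, against 62.9 and 61.0 CPM uninjured. Its log2 fold changes stayed within the fold cutoff, between −0.97 and 0.76.

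**Figure D3:**
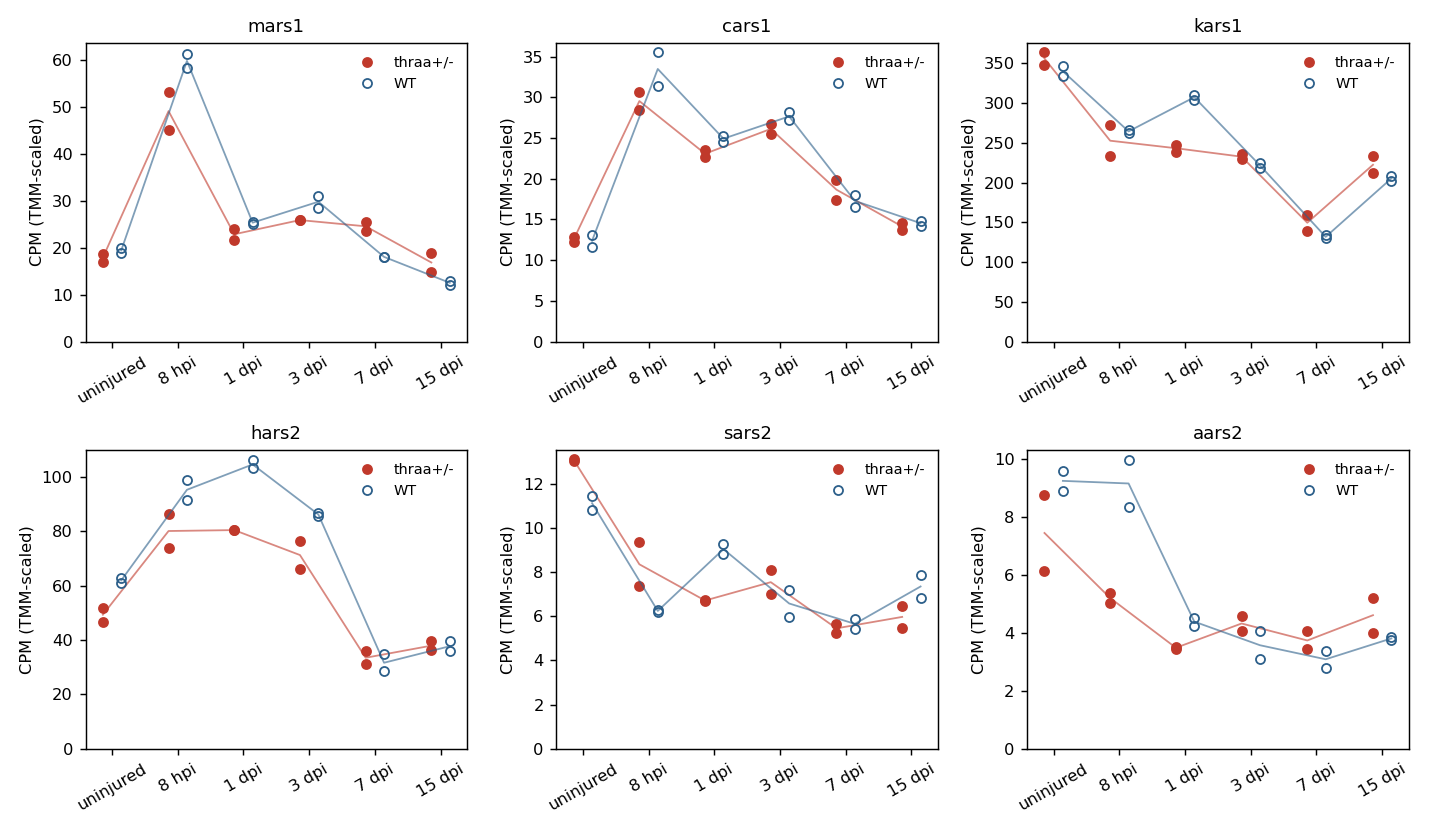
CPM on TMM-scaled libraries of mars1, cars1, kars1, hars2, sars2 and aars2 by time, with 1 point per library and lines through the mean of the 2 libraries; filled points are thraa+/-, open points WT, and each panel has its own axis starting at 0. The 8 hpi libraries of mars1 stand above all others, and the uninjured libraries of sars2, at 10.8 to 13.1 CPM, stand above all injured ones on this scale, though not in TPM.

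The wider translation machinery gave a frame for both classes. Mitochondrial ribosomal proteins had the lowest median of the translation lists: at 7 dpi 70 of 75 were called lower in thraa+/- (93.3%, against 14.1% of all genes) with a median of −1.82 relative to all genes, and 72 of 75 in WT (96.0%, against 13.6%) with a median of −1.87. Examples in thraa+/- and WT were mrpl45 (−2.32 and −2.11), mrps17 (−1.70 and −2.28), mrpl43 (−2.24 and −1.66) and the abundant mrpl57 (−1.34 and −1.63), mrps34 (−1.56 and −1.44) and mrpl41 (−1.42 and −1.67). Of 20 other mitochondrial translation genes, 10 were called lower at 7 dpi in thraa+/- (against 14.1% of all genes) and 9 in WT (against 13.6%), among them the elongation factors tufm (−2.33 and −2.12) and tsfm (−1.31 and −1.79), the ribosome recycling factor mrrf (−1.95 and −1.29) and qrsl1 (−2.19 and −1.17), a subunit of the amidotransferase that makes mitochondrial glutaminyl-tRNA. The amidotransferase subunit gatc, at −0.71 and −0.50, did not pass the fold cutoff. The summed cardiomyocyte markers were lowest at 3 and 7 dpi, at 53186 to 54215 TPM and 48617 to 48870 TPM in thraa+/-. In WT these sums were 47664 to 47948 TPM and 50712 to 51542 TPM. The part of this in the values of the mitochondrial lists was not tested.

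The cytosolic ribosomal proteins lay below other genes at 8 hpi. Their median relative to all genes was −0.37 in thraa+/- and −0.48 in WT. In each, 1 of 82 was called higher, the ribosomal protein-like gene rpl7l1 (1.04 and 1.32). That is 1.22%, against 17.5% of all genes in thraa+/- and 16.5% in WT. The abundant rps29 (0.06 and −0.44), rps2 (0.30 and −0.04) and rpl34 (−0.35 and −0.36) were all within the fold cutoff. Of 12 tested cytosolic elongation factor genes 2 were called higher at 8 hpi in both genotypes (16.7%, against 17.5% of all genes in thraa+/- and 16.5% in WT), eef2a.1 (1.44 and 1.24) and eif5a2 (1.07 and 1.21), while the abundant eef1a1l1 (−0.42 and −0.40), eef1b2 (−0.91 and −0.84) and eif5a (−0.67 and −0.40) did not pass the fold cutoff.

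The cytosolic members were also split by membership of the multi-synthetase complex as known from mammals, with no test. At 8 hpi the 7 members of the complex among the 18 had a median of 0.57 relative to all genes in thraa+/- and 0.59 in WT, against 0.75 and 0.71 for the other 11. At 7 dpi the complex members had −0.71 in thraa+/- and −0.75 in WT and the others −0.30 and −0.71. Of the scaffold genes, aimp1 (ENSDARG00000060036) had −0.33 in thraa+/- and −0.37 in WT at 8 hpi, aimp2 0.44 and 0.29 and eef1e1 −0.16 and 0.91, none past the fold cutoff, while the rare gene ENSDARG00000036894, also named aimp1, passed the cutoffs in WT (−2.20) and not in thraa+/- (−1.17). Outside the rule, lars1a, the other leucyl gene, was called higher (1.47 and 2.64). There eprs1, the glutamyl-prolyl enzyme, had 0.88 and 0.99 and tars3 −0.78 and −0.95. The mitochondrial gene pars2 had 0.95 in WT at 8 hpi (edgeR adjusted p = 0.0119), under the fold cutoff. At 7 dpi pars2 had −0.41 in thraa+/- and −0.31 in WT and was not called.

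The amino acid response list, 30 tested genes of which many are ATF4 targets in mammals, was mixed at 8 hpi: 7 were called higher (23.3%) and 6 lower (20.0%) in each genotype, against 17.5% higher and 12.9% lower of all genes in thraa+/- and 16.5% and 12.5% in WT, with medians relative to all genes of 0.23 in thraa+/- and −0.23 in WT. Those higher included the cystine transporter slc7a11 (5.37 and 3.26), the neutral amino acid transporter slc7a5 (3.28 and 5.04) and phgdh (4.44 and 2.30), the first enzyme of serine synthesis, each rare with mean levels of 0.44, 0.26 and 1.71 TPM. The abundant chac1, which degrades glutathione, was lower (−2.25 and −1.27), atf4a itself had −0.09 and −0.82, and cebpb passed the cutoffs in thraa+/- (2.49) and not in WT (0.33). Among 7 genes that edit mischarged tRNA or recycle peptidyl-tRNA, 1 was called higher and 1 lower at 8 hpi in thraa+/- and 1 lower in WT, each 14.3% of the list, against 17.5% higher and 12.9% lower of all genes in thraa+/- and 12.5% lower in WT. They included ankrd16 (−1.86 and −1.04) and prorsd1 (−0.40 and −1.20), with dtd1 at 0.68 and 0.90 and ptrh2 at 0.99 and 0.17.

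The genotypes were then compared directly at each time. At the fold cutoff, 2 of 33 members differed between uninjured thraa+/- and uninjured WT hearts (6.06%, against 11.5% of all genes in either direction), and these were both tryptophanyl genes, wars1 lower and wars2 higher. From 8 hpi to 15 dpi edgeR called 0 of 33, against 10.5%, 7.59%, 8.57%, 6.25% and 7.85% of all genes at 8 hpi and 1, 3, 7 and 15 dpi. DESeq2 and limma also called 0 of 33 by the same cutoffs, while 16, 19, 10, 9 and 9 members had an unadjusted p under 0.05. The share of all genes with such a p is not given here, so these counts cannot be read against the genome.

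Smaller differences ran in 1 direction early and in the other late. By adjusted p alone the cytosolic members lower in thraa+/- numbered 8 of 18 uninjured (44.4%, against 16.2% of all genes), 12 at 8 hpi (66.7%, against 13.4%), 10 at 1 dpi (55.6%, against 10.7%) and 7 at 3 dpi (38.9%, against 12.7%), with class medians between −0.28 and −0.15. Examples at 8 hpi were sars1 (−0.50), farsa (−0.48), lars1 (−0.45) and tars1 (−0.38). At 7 dpi 4 of 18 were higher in thraa+/- (farsb, mars1, sars1 and yars1; 22.2%, against 11.7%) and at 15 dpi 7 of 18 (among them gars1, mars1, nars1, qars1, sars1 and wars1; 38.9%, against 12.8%), with medians of 0.12 and 0.13. The exceptions among those early members were nars1, the asparaginyl enzyme, higher at 0.26 uninjured and 0.23 at 1 dpi, and later farsa, lower at −0.40 at 7 dpi. The late direction is close to the scale: with total-count scaling the 15 dpi median was 0.02, against −0.09 for all genes. In the mitochondrial class 3 of 15 or fewer differed in 1 direction by adjusted p alone at any time. Of all genes 10.7% to 16.2% were lower from uninjured to 3 dpi, and 11.7% and 12.8% higher at 7 and 15 dpi.

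**Figure D4:**
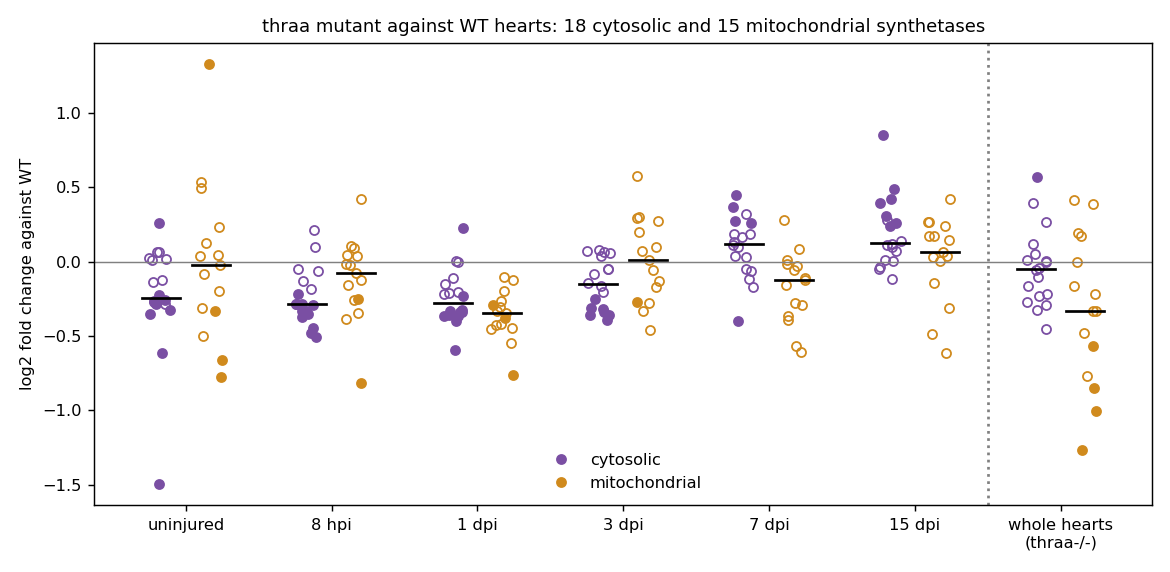
Log2 fold change of each synthetase in thraa+/- against WT at the 6 stages of the time course and in thraa-/- against WT in whole hearts; purple points are the 18 cytosolic and orange points the 15 mitochondrial members, filled where the edgeR adjusted p is under 0.05, and bars mark class medians. The cytosolic median lies between −0.28 and −0.15 up to 3 dpi and at 0.12 and 0.13 at 7 and 15 dpi, and wars1 and wars2 are the extreme points of the uninjured hearts.

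The test of the interaction, the injury response of thraa+/- minus that of WT, called the same pair of genes. It called wars1 and wars2 at 8 hpi (14.1% of all genes were called in either direction), 1 dpi (10.9%), 3 dpi (8.74%) and 7 dpi (12.7%), which is 6.06% of the 33, and wars1 alone at 15 dpi (3.03%, against 9.23%). By adjusted p alone the response of thraa+/- exceeded that of WT for 6 of 18 cytosolic members at 7 dpi (farsb, mars1, sars1, tars1, wars1 and yars1; 33.3%, against 14.1% of all genes) and 7 of 18 at 15 dpi (iars1, mars1, qars1, sars1, tars1, wars1 and yars1; 38.9%, against 11.7%). Every interaction uses the uninjured libraries, where the cytosolic median of thraa+/- against WT was already −0.24. At 7 and 15 dpi that median was 0.12 and 0.13. How much of these counts comes from the uninjured libraries was not tested.

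The gene wars1 encodes the cytosolic tryptophanyl enzyme, which in human cells is strongly induced by interferon gamma. In thraa+/- it measured 8.37 and 9.71 CPM at 8 hpi, 7.32 and 7.00 at 1 dpi, followed by 6.13 and 6.57 at 3 dpi, 2.10 and 2.75 at 7 dpi, then 2.36 and 2.60 at 15 dpi, against 2.85 and 2.17 CPM uninjured. In WT it measured 8.90 and 9.83 CPM at 8 hpi, 7.44 and 6.90 at 1 dpi, followed by 5.81 and 6.34 at 3 dpi, 1.74 and 2.16 at 7 dpi, then 1.61 and 1.12 at 15 dpi, against 6.80 and 7.39 CPM uninjured. The genotypes overlapped from 8 hpi to 7 dpi and did not overlap at 15 dpi, where thraa+/- was the higher, or in uninjured hearts, where thraa+/- was the lower. The uninjured thraa+/- libraries were as low as late injured ones and WT libraries as high as early injured ones.

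Uninjured, wars1 differed by a log2 fold change of −1.5 in thraa+/- against WT (SE 0.26, edgeR adjusted p = 1.52e-05). The interaction was 1.44 (SE 0.33, edgeR adjusted p = 7.53e-04) at 8 hpi, 1.5 at 1 dpi, 1.56 at 3 dpi, 1.81 at 7 dpi and 2.34 (SE 0.40, edgeR adjusted p = 1.35e-05) at 15 dpi. All 5 interactions use the same 4 uninjured libraries, so they are not separate results. The counts of wars1 ran from 18 to 139 per library, and the uninjured thraa+/- libraries held 28 and 22. In 75% of the time-course libraries the estimated count of wars1 was not a whole number, which means that some of its reads were shared with another gene or copy. Other members had such counts too, in 100% of these libraries for iars2, 50% for aars1 and 25% for kars1 and yars2. The 14 leukocyte markers summed to 207 to 212 TPM in uninjured thraa+/- hearts and to 366 to 382 TPM in uninjured WT hearts, and the part of this in the difference was not tested.

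The mitochondrial counterpart wars2 went the other way. The thraa+/- libraries measured 2.61 and 3.53 CPM at 8 hpi, 2.51 and 4.13 at 1 dpi, followed by 1.91 and 3.10 at 3 dpi, 1.64 and 1.09 at 7 dpi, then 2.30 and 3.00 at 15 dpi, against 6.11 and 3.66 CPM uninjured. The WT libraries measured 3.90 and 4.10 CPM at 8 hpi, 4.64 and 2.96 at 1 dpi, followed by 3.62 and 3.25 at 3 dpi, 1.89 and 2.27 at 7 dpi, then 2.74 and 1.62 at 15 dpi, against 2.20 and 1.66 CPM uninjured. The uninjured libraries did not overlap between genotypes, although the 2 thraa+/- libraries were far apart.

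For wars2 the uninjured log2 fold change was 1.33 in thraa+/- against WT (SE 0.38, edgeR adjusted p = 0.00589), and the interaction was −1.71 at 8 hpi (SE 0.51, edgeR adjusted p = 0.00851), −1.53 at 1 dpi, −1.79 at 3 dpi, −1.93 at 7 dpi and −1.07 at 15 dpi, where it was not called. These values rest on 16 to 71 counts per library, and the uninjured WT libraries held 22 and 16. Without thraa+/- uninjured replicate 1 none of them was called: the uninjured difference was 0.86, and the interaction −1.27, −1.05, −1.3 and −1.48 from 8 hpi to 7 dpi. Without WT uninjured replicate 2 the uninjured difference was 1.1 and was not called either, and the interaction was not called at 8 hpi (−1.5), 1 dpi (−1.28) or 3 dpi (−1.53).

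**Figure D5:**
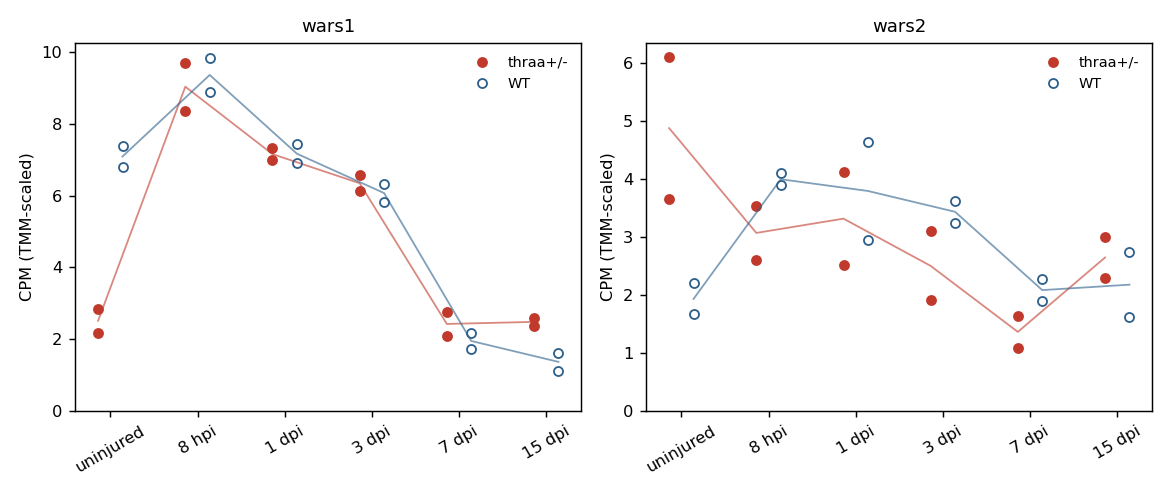
CPM on TMM-scaled libraries of wars1 (left panel) and wars2 (right panel) by time, with 1 point per library and lines through the mean of the 2 libraries; filled points are thraa+/-, open points WT. In uninjured hearts wars1 is at 2.17 to 2.85 CPM in thraa+/- and 6.80 to 7.39 CPM in WT, and wars2 at 3.66 to 6.11 CPM in thraa+/- and 1.66 to 2.20 CPM in WT, while the genotypes lie close together at 8 hpi to 3 dpi for wars1.

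In whole hearts, thraa-/- was compared with WT over 15793 genes, where a gene is called at a log2 fold change of at least 0.585 (1.5-fold) and an adjusted p under 0.05. Of the 33 members 3 were called (9.09%, against 19.2% of all genes), all mitochondrial and all lower. The methionyl gene mars2 measured 1.45 and 2.59 CPM in thraa-/- hearts, against 4.46 and 5.25 CPM in WT hearts, a log2 fold change of −1.27 (SE 0.33, edgeR adjusted p = 0.0247). The asparaginyl gene nars2 measured 2.17 and 2.80 CPM in thraa-/- hearts, against 4.66 and 5.32 CPM in WT hearts, a log2 fold change of −1.01 (SE 0.28, edgeR adjusted p = 0.0290). The seryl gene sars2 measured 5.52 and 5.80 CPM in thraa-/- hearts, against 9.58 and 10.8 CPM in WT hearts, a log2 fold change of −0.85 (SE 0.20, edgeR adjusted p = 0.0141).

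Outside the rule, the mitochondrial gene pars2 was also called lower, at −1.92 (SE 0.42, edgeR adjusted p = 0.0111). In that comparison eprs1, lars1a and tars3 were not called. The 3 calls among the members are fragile. Without thraa-/- replicate 1, 0 of 33 were called by edgeR. Without thraa-/- replicate 2, 1 was called, and without WT replicate 2, 5. DESeq2 called sars2 alone. By adjusted p without the fold cutoff mars1 was also higher, at 26.4 and 29.0 CPM in thraa-/- and 17.3 and 20.1 CPM in WT (0.57), while no other cytosolic member passed.

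The median log2 fold change in whole hearts was −0.33 over the 15 mitochondrial members and −0.05 over the 18 cytosolic members, with −0.02 over all genes. With total-count scaling these medians were −0.59, −0.30 and −0.27. Summed TPM of the 14 mitochondrial members without hars2 was 40.0 and 40.3 in thraa-/- and 61.5 and 60.7 in WT. That of the cytosolic members was 295 and 288 in thraa-/- and 357 and 379 in WT. The size of the mitochondrial difference depends on the scale, and so does the presence of a cytosolic one. In CPM the mitochondrial sums were 120 and 121 in thraa-/- and 135 and 141 in WT. The cytosolic CPM sums were 775 and 789 in thraa-/- and 774 and 826 in WT, and so overlapped. Mitochondrial ribosomal proteins had a median of −0.18 relative to all genes, with 8 of 75 called lower (10.7%, against 9.54% of all genes). Cardiomyocyte markers summed to 74867 to 75029 TPM in thraa-/- and 86798 to 93188 TPM in WT, and leukocyte markers to 163 to 178 TPM in thraa-/- and 492 to 544 TPM in WT. The part of these markers in the fall of the mitochondrial members was not tested. In the time course, where the mutant hearts were thraa+/-, mars2, nars2 and sars2 did not differ between the genotypes in uninjured hearts by the same test (0.54, 0.04 and 0.23). The tissue, genotype and experiment all differ, so the values stand side by side without a comparison.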

How the data were processed

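RNA-seq libraries of ventricular tissue were made from pools of at least 5 fish, 2 per group, so p-values measure the spread between such pools. Per the labels and the study's methods, reads were trimmed with Trim Galore 0.6.10, aligned to GRCz11 with STAR 2.7.9 and quantified with RSEM 1.3.3. The authors deposited RSEM expected counts and TPM per gene. Expected counts were rounded to whole numbers and tested with edgeR 4.0.16 (TMM, quasi-likelihood, 1 fit over all 24 time-course libraries, another over the 4 whole-heart libraries) in R 4.3.3, and p-values were Benjamini-Hochberg adjusted over all genes tested. The count scripts were tested on simulated data. TPM served for levels. Alternatives were DESeq2 1.42.0, limma 3.58.1 on log2(TPM + 1) and log2(TPM + 0.1), other scalings, filters and cutoffs, a replicate block, and each library left out. Described individually are, for each class, the 4 called genes with the largest changes at the time with most calls, genes called between genotypes, in the interaction or in whole hearts, and of other lists the 3 most abundant and the 3 with the largest called changes; kars1 and hars2 were added after their values were seen. Members, markers and lists were chosen with earlier results of these data known. No column of another series was used. Some single-gene results that the naming rule selects are not reported here, and counts, sums and medians cover all members.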

Additional observations from a re-analysis of the deposited data

Results flagged for a closer look

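Both tryptophanyl genes were called in the interaction term of the edgeR fit, the log2 fold change against uninjured hearts in thraa+/- minus that in WT. For wars1 the difference was 1.44 at 8 hpi, 1.5 at 1 dpi, 1.56 at 3 dpi, 1.81 at 7 dpi and 2.34 at 15 dpi. For wars2 it was −1.71 at 8 hpi, −1.53 at 1 dpi, −1.79 at 3 dpi and −1.93 at 7 dpi. All of these share the same 4 uninjured libraries, where the genotypes differed for both genes. From 8 hpi to 15 dpi edgeR called neither gene between the genotypes. The wars1 levels of the genotypes overlapped from 8 hpi to 7 dpi. The wars2 values from 8 hpi to 3 dpi were smaller in size without WT uninjured replicate 2, as given above. The wars1 calls held with each library left out in turn, and the wars2 calls were lost at all 4 times without thraa+/- uninjured replicate 1.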

How the results depend on the processing

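Of the members called against uninjured hearts (53 over the 10 comparisons, 18 higher and 35 lower), total-count scaling gave 84 (78 higher and 6 lower) and adjusted p alone 221, and the share of higher calls moved with the scale, at 34.0% with TMM and 92.9% with total counts. Calls between thraa+/- and WT numbered 2, with 1 by limma on log2(TPM + 1), 61 by adjusted p alone and 1 to 3 with a library left out. Interaction calls numbered 9, with 27 by adjusted p alone. Whole hearts gave 3 calls, with 1 by DESeq2, 6 by total-count scaling, 5 by limma on log2(TPM + 1), 7 on log2(TPM + 0.1), 5 by adjusted p alone and 0 to 5 with a library left out. The cytosolic minus mitochondrial median ranged, with each library left out, over 0.98 to 1.35 at 8 hpi, 0.93 to 1.09 at 1 dpi, 0.90 to 1.05 at 3 dpi and 0.11 to 0.36 at 15 dpi in thraa+/-, and over 0.85 to 1.06 at 8 hpi and −0.0908 to 0.0932 at 15 dpi in WT. That WT value at 15 dpi, 0.03, was −0.0498 by limma on log2(TPM + 1) and −0.0383 on log2(TPM + 0.1), so it has no direction. With the replicate number as a block the counts were 53, 2, 9 and 3, as without it; the labels give the numbers no shared source, and same-numbered libraries had deviations correlated at −0.024 to 0.032 except between the genotypes at 8 hpi (0.20). No called member reversed under any alternative run. The causes of these changes were not tested. Depth limits the rare mitochondrial members, whose lowest library held 16 counts, and the cytosolic wars1, whose lowest held 18.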
